A study of Mus musculus with 24 samples.

Results

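The core cardiac transcription factors are the DNA-binding proteins that set up and maintain heart muscle identity. The 10 genes described here are Gata4, Gata5, Gata6, Hand1, Hand2, Tbx5, Tbx20, Nkx2-5, Irx4 and Isl1. Each was taken by its gene symbol, as given by the array's probe annotation for probe sets that name a single gene, and all 10 were measured among the 18819 genes tested. Gata5 alone had more than 1 probe set, of which the brightest over the 24 arrays was used. The list was drawn up by gene family and role, with earlier results of these data known.

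Ventricle tissue of C57/Bl6 mice (C57BL/6J in the methods) was hybridised to whole-transcript Affymetrix arrays in 4 groups of 6 hearts, newborn wild type (WT), newborn knockout (KO), P30 WT and P30 KO. The KO mice lacked caspase-7 in all cells, and their floxed caspase-3 was deleted by Cre expressed from a transgene with the Nkx2.5 basal promoter and cardiac enhancer, so the allele is lost in the myocardium and not in cells outside that lineage. These sequences belong to one of the 10 genes, but the transgene leaves both copies of Nkx2-5 in place. Some caspase-3 protein was still seen in neonatal KO hearts on Western blots, which are not part of these data, and this limits the newborn groups as a model of its loss. The labels give the newborn animals as 1 to 2 days old and the others as 30 days old, whereas the methods give slightly different days. Both sexes were used, and the methods give equal numbers of males and females for WT hearts, without a separate split for KO hearts. The sex of each sample, the day of processing and whether the WT mice carried Cre were not given in the sources used here. The paper reports no effect of Cre, or of caspase-7 loss alone, on the expression it checked. Its main text does not name the genes checked.

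Heart formation depends on a small set of transcription factors that bind one another and share enhancers. GATA4, GATA5 and GATA6 are zinc-finger proteins that recognise GATA motifs. HAND1 and HAND2 are basic helix-loop-helix proteins that bind E-boxes and, in the mouse embryo, are needed for the left and right ventricle. TBX5 and TBX20 are T-box proteins, NKX2-5 is the NK homeodomain factor that partners with both GATA4 and TBX5, IRX4 is a ventricle-restricted Iroquois homeodomain factor, and ISL1 is a LIM-homeodomain factor of the second heart field progenitors and of the sinus node and cardiac neurons. In the postnatal heart TBX5 is most abundant in the atria and the conduction system, and GATA5 is best known from the endocardium and epicardium.

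The deposited values are on the log2 scale, on which a difference of 1 is a doubling, after the authors' RMA treatment (background correction, equal distributions over the arrays, 1 summary per probe set). They ran from 1.07 to 13.5, array medians lay between 4.24 and 4.50, and 0 pairs of arrays were identical. Signals of different probe sets cannot be set against each other, and each gene is compared here only with itself. Genotypes rest on the labels, since the caspase-3 and caspase-7 genes were not analysed here. The newborn WT and newborn KO arrays numbered 4 were also left out together, an alternative chosen with earlier results of these data known, and calls that change without them are named. The mean log2 signal of 12 ventricular cardiomyocyte markers was between 11.86 and 12.07 in every array. Several of the 12, such as Tnnt2 and Actc1, are also active in atrial muscle. This mean therefore cannot show how much atrial tissue an array held. In newborn hearts 0 of these 12 markers were called between genotypes, as were 0% of all genes tested. At P30, where 0.351% of all genes tested were lower in KO hearts and 0.67% higher, 2 of the 12 were lower and 0 higher. They were Ttn, the giant spring protein of the sarcomere, which fell by 0.44 on the log2 scale (SE 0.06, adjusted p = 0.000948 from limma), and Ryr2, the calcium release channel of the sarcoplasmic reticulum, which fell by 0.24 (SE 0.06, adjusted p = 0.0365). The mean of 13 atrial cardiomyocyte markers was far less even, at 7.50 to 9.33 in WT and 8.23 to 9.37 in KO hearts of newborn mice, and at 5.92 to 9.30 in WT and 6.39 to 9.76 in KO hearts at P30.

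Among the members Isl1 had the weakest probe set, with a mean of 3.38 over all arrays. This lies below 3.55, the 30th percentile of the genes tested, so its values are close to the background of the arrays. The other 9 genes were above that level. Their signals fell into fairly tight groups for Gata4, Gata6, Tbx20 and Nkx2-5, whose SD was at most 0.19 in each group of 6. Gata5 at P30, with an SD of 0.72 in WT and 0.66 in KO hearts, and Tbx5, with SDs of 0.29 to 0.42 in the 4 groups, were much more spread.

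**Figure D1:**
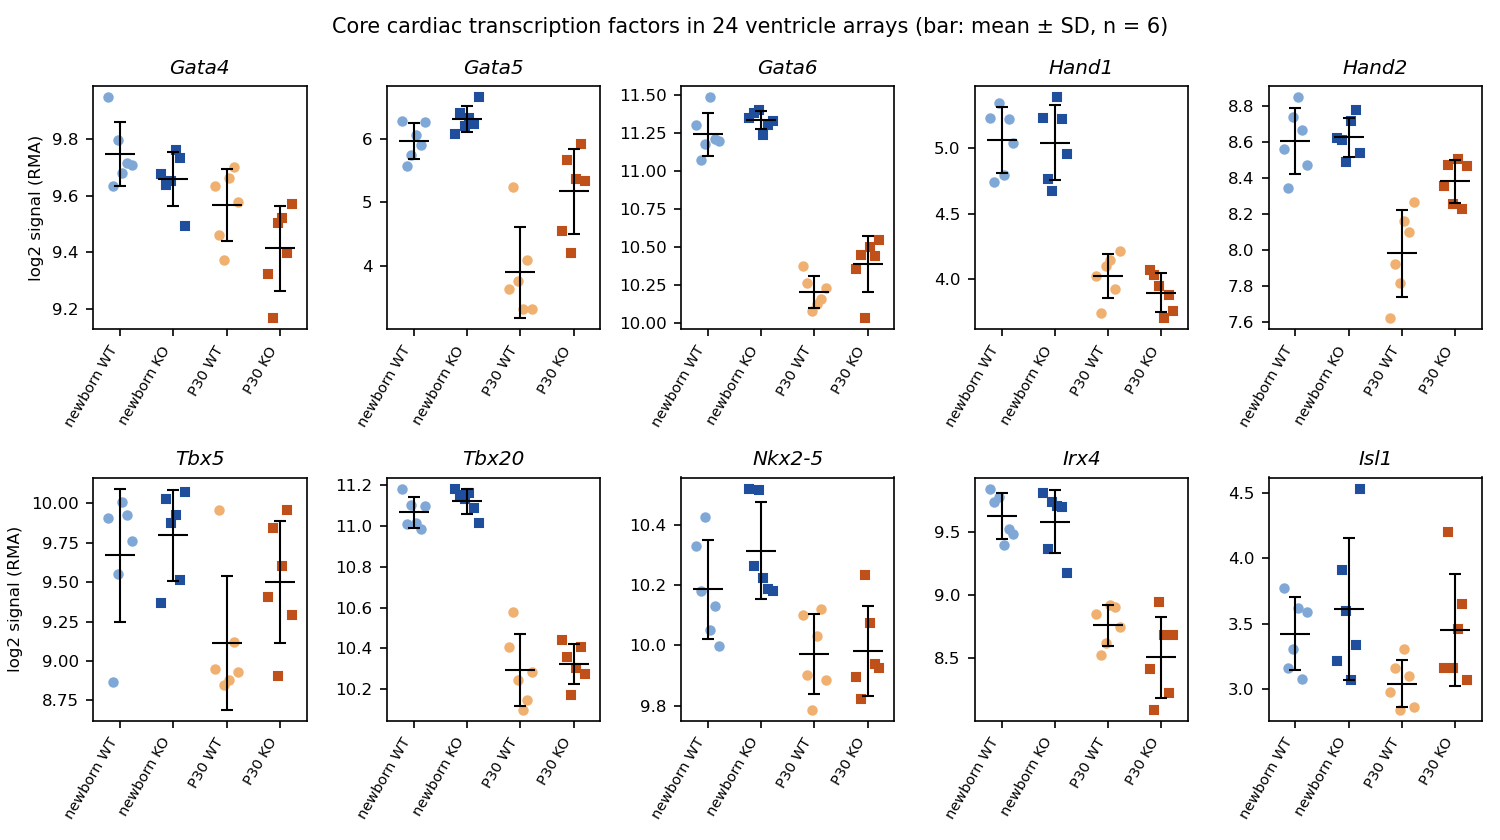
Log2 RMA signal (vertical axis) of each of the 10 transcription factor genes in the 4 groups (horizontal axis), with 1 point per array and a bar at the mean with its SD (n = 6). The P30 points lie below the newborn points for most genes, and the P30 WT array with the high Tbx5 value stands apart at 9.96.

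The first question was how the factors change between birth and P30 in WT ventricles. Gata5, Gata6, Hand1, Hand2, Tbx5, Tbx20, Nkx2-5 and Irx4 fell, 8 of 10, where 27.9% of all genes tested fell at the same threshold, an adjusted p under 0.05 in limma with Benjamini-Hochberg adjustment over all genes. None of the 10 rose, against 19.2% of all genes. The median log2 difference was -0.70 over the 10 genes and 0.00 over all genes.

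Gata5 showed the widest age difference of the 3 GATA genes. Its log2 signal was 5.57, 5.98 and 6.27 (lowest, median and highest array) in newborn WT hearts and 3.32, 3.70 and 5.24 in P30 WT hearts, so that every P30 array lay below every newborn array. Gata5 fell by 2.07 on the log2 scale (SE 0.27), with an adjusted p of 6.92e-07 in limma. The P30 WT arrays numbered 4 and 6, at 3.32 and 3.33, lay below 3.55, so the size of differences from this group may be understated. Gata6, which is expressed in cardiomyocytes and in several other heart cell types, went from 11.07, 11.20 and 11.48 to 10.07, 10.19 and 10.37. These groups too were fully separate, and Gata6 fell by 1.04 on the log2 scale (SE 0.08, adjusted p = 6.41e-11 from limma). Gata4, the member of the family most closely tied to cardiomyocyte gene expression, moved much less. Its values were 9.64, 9.71 and 9.95 in newborn and 9.37, 9.61 and 9.70 in P30 WT hearts, the ranges overlapped, and the difference of -0.18 (SE 0.07) narrowly missed the threshold with an adjusted p of 0.0503. It passed when newborn WT 2 or 4, newborn KO 6, P30 WT 4 or 5, or P30 KO 2, 4 or 6 was left out (adjusted p 0.0331 to 0.0499). Of 35 alternatives, these omissions among them, 13 gave a Gata4 call.

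Both Hand genes fell without overlap between the ages. Hand1 had a log2 signal of 4.74, 5.13 and 5.35 in newborn WT hearts and 3.74, 4.06 and 4.21 in P30 WT hearts, and fell by 1.04 (SE 0.12, adjusted p = 1.08e-07 from limma). Its P30 values are not far above 3.55, so the size of this fall may be understated. Hand2 went from 8.35, 8.61 and 8.85 to 7.62, 8.01 and 8.27, and fell by 0.62 (SE 0.10, adjusted p = 7.11e-06). The Hand2 ranges were separated by less than 0.1, since the highest P30 WT array was at 8.27 and the lowest newborn WT array at 8.35.

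The T-box genes differed in spread. Tbx20, a cardiomyocyte factor that also acts in the endocardium, had log2 signals of 10.99, 11.06 and 11.18 in newborn and 10.10, 10.26 and 10.58 in P30 WT hearts, with no overlap. It fell by 0.77 (SE 0.07, adjusted p = 1.29e-09 from limma). Tbx5 went from 8.87, 9.83 and 10.01 to 8.85, 8.94 and 9.96, so the ranges covered each other almost entirely because of the newborn WT array numbered 2 at the low end and the P30 WT array numbered 2 at the high end. It fell by 0.56 (SE 0.21) with an adjusted p of 0.0286, and the call was lost without newborn WT 1, 4, 5 or 6 or P30 WT 1, 3, 4 or 6 (adjusted p 0.0506 to 0.0690), and without both newborn arrays numbered 4 (0.0753).

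Of the homeobox genes, Irx4 fell by 0.86 (SE 0.13, adjusted p = 4.46e-06 from limma), from 9.40, 9.63 and 9.84 to 8.52, 8.80 and 8.93, with no overlap. Nkx2-5 fell by 0.21 (SE 0.09, adjusted p = 0.0487), from 9.998, 10.16 and 10.42 to 9.79, 9.97 and 10.12, and its ranges overlapped. Omitting any of 15 arrays ended the Nkx2-5 call, and these were P30 WT 2, 3, 4 and 6, P30 KO 1, 4, 5 and 6, newborn WT 1, 2, 3 and 5 and newborn KO 2, 4 and 5 (adjusted p 0.0506 to 0.129). Of 35 alternatives, these omissions among them, 19 ended it (adjusted p up to 0.137). Isl1, near background at both ages, had a difference of -0.38 (SE 0.21, adjusted p = 0.134). Its fall was called in 1 of 34 alternatives (adjusted p = 0.0190 from limma). In all, 6 of the 10 genes had P30 WT values wholly below the newborn WT values, where this held for 18.2% of all genes tested.

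In KO ventricles the same comparison of ages again gave 8 falls among the 10 genes, where 25% of all genes fell and 34% rose. Gata4 was now among them, at -0.25 (SE 0.07, adjusted p = 0.00747 from limma), and Tbx5 was not, at -0.30 (SE 0.21, adjusted p = 0.214). Hand1 fell by 1.14, Gata5 by 1.14, Irx4 by 1.07, Gata6 by 0.95, Tbx20 by 0.80, Nkx2-5 by 0.33 and Hand2 by 0.25 on the log2 scale, with adjusted p-values between 3.89e-10 for Gata6 and 0.0338 for Hand2. The Hand2 call was lost without newborn KO 4 or 5 or P30 KO 1, 3 or 5 (adjusted p 0.0524 to 0.0750), and without both newborn arrays numbered 4 (0.0570). Values of the ages did not overlap for 5 genes, Gata5, Gata6, Hand1, Tbx20 and Irx4, against 15.1% of all genes. Isl1 had a difference of -0.16 (SE 0.21, adjusted p = 0.508). The median log2 difference was -0.56 over the 10 genes and 0.10 over all genes.

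**Figure D2:**
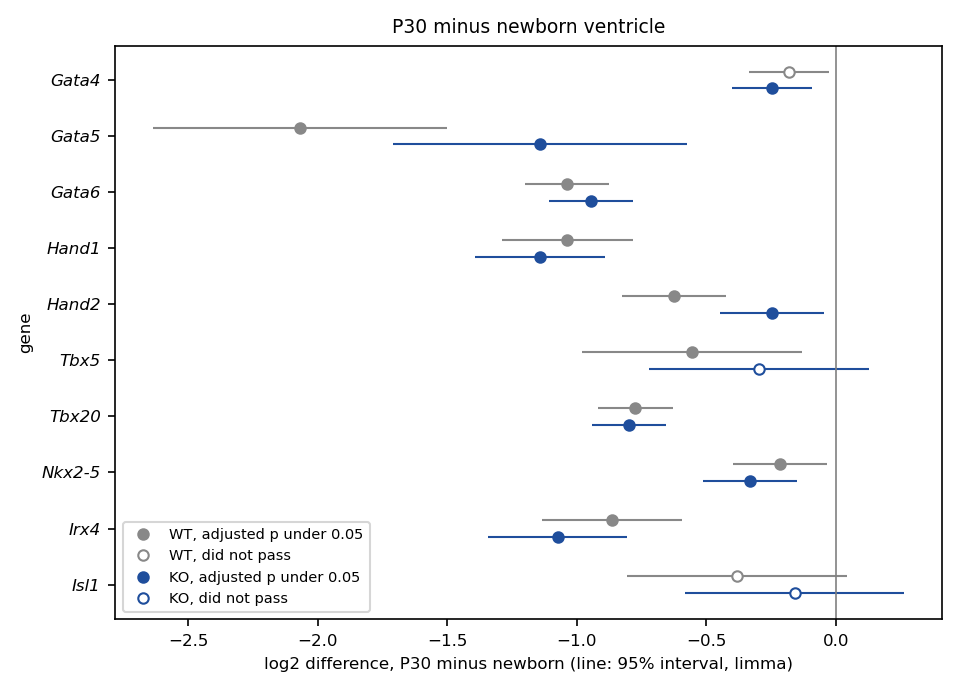
Log2 difference P30 minus newborn (horizontal axis) of each gene (vertical axis) in WT and in KO hearts, with filled points for differences past the threshold, open points for the others and lines for 95% confidence intervals from limma. All 20 differences are below 0, and Gata5 in WT hearts lies lowest at -2.07.

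The second question was whether loss of the executioner caspases altered the factors. At P30, Gata5 and Hand2 rose in KO ventricles and none of the 10 fell, so 2 of 10 were called higher where 0.67% of all genes tested were, and 0 of 10 lower where 0.351% were. At an unadjusted p under 0.05 there were 4 members, Gata5, Hand2, Gata6 and Gata4, against 15% of all genes. The KO and WT ranges overlapped for all 10 genes, while they did not for 0.824% of all genes. The paper names Gata5 and Hand2 from the same arrays, and the list was chosen with earlier results known. Neither their direction nor the count of 2 of 10 is therefore independent evidence.

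The 250 bases before the annotated start of these 2 genes are shown so that their regulatory sequence can be read beside the values. They come from RefSeq (GRCm38.p6), in which 6 of the 10 genes were matched, and are printed 5′ to 3′ on the gene's own strand, chr2:180334680-180334929 (minus strand) for Gata5 and chr8:57320733-57320982 (plus strand) for Hand2. Capitals mark the motif letters GATAA, read on either strand, and CANNTG, the E-box core that basic helix-loop-helix proteins bind.
Gata5: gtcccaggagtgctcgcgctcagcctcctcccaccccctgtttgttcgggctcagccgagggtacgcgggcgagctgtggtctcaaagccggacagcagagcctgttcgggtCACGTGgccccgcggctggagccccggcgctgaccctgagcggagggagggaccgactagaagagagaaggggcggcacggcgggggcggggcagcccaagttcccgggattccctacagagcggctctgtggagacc
Hand2: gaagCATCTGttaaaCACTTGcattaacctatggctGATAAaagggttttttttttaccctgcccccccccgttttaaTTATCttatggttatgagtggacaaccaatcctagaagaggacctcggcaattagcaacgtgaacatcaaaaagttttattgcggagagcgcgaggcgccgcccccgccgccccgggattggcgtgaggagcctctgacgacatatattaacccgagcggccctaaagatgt
The Hand2 window held 2 matches of GATAA and 2 of CANNTG, and the Gata5 window 0 and 1, with 0 overlaps between the motifs in either. Over 32851 promoters of the same length 22.6% held GATAA and 66.2% held CANNTG, so these matches are common and are given as a description of the letters only.

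The log2 signal of Gata5 was 3.64, 5.24, 3.76, 3.32, 4.09 and 3.33 in the P30 WT arrays 1 to 6 and 4.54, 5.67, 4.21, 5.36, 5.92 and 5.33 in the P30 KO arrays 1 to 6. Of the KO arrays, 4 were above every WT array, and the ranges overlapped because of the WT array numbered 2 and the KO arrays numbered 1 and 3. The mean was 3.90 ± 0.72 in WT and 5.17 ± 0.66 in KO hearts (SD, n = 6 each). The rise was 1.27 on the log2 scale (SE 0.27, 95% interval 0.71 to 1.84), with an adjusted p of 0.0207 in limma. The P30 KO mean thus lay between the P30 WT mean and the newborn means of 5.97 in WT and 6.31 in KO hearts.

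This call was sensitive to the omission of single arrays. It was lost without P30 WT 1, 4 or 6 or P30 KO 2 or 5 (adjusted p 0.0580 to 0.0627), while the difference stayed between 1.12 and 1.54, and in a fit of the 12 P30 arrays alone the adjusted p was 0.195. The gene's other, dimmer probe set stayed between 3.54 and 4.28 in all 24 arrays. It had a P30 difference of 0.10 (SE 0.09, adjusted p = 0.701) and a WT age difference of -0.05 (SE 0.09, adjusted p = 0.741), so the 2 probe sets of Gata5 disagree in both comparisons. With the mean of both, the P30 difference was 0.69 (adjusted p = 0.0220).

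Hand2 was measured at 7.62, 7.92, 7.82, 8.16, 8.10 and 8.27 in the P30 WT arrays 1 to 6 and at 8.36, 8.47, 8.25, 8.51, 8.23 and 8.47 in the P30 KO arrays. Again 4 KO arrays were above every WT array, and the KO arrays numbered 3 and 5 fell just under the highest WT value. The mean was 7.98 ± 0.24 in WT and 8.38 ± 0.12 in KO hearts (SD, n = 6 each), a rise of 0.40 on the log2 scale (SE 0.10, 95% interval 0.20 to 0.60) or 1.32-fold, with an adjusted p of 0.0449 in limma.

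The Hand2 call was even closer to the threshold than that of Gata5. It was lost without newborn WT 1, 5 or 6, newborn KO 1, 2, 3, 4 or 5, P30 WT 1 or 3, or P30 KO 1, 2, 4 or 6 (adjusted p 0.0509 to 0.120, difference 0.33 to 0.46 over all 24 omissions). It was also lost after median centring (0.34, adjusted p = 0.0876), with array weights (0.0621), with all probe sets tested (0.0743) and with the 12 P30 arrays alone (0.195), and a fold change of at least 1.5 was not reached.

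**Figure D3:**
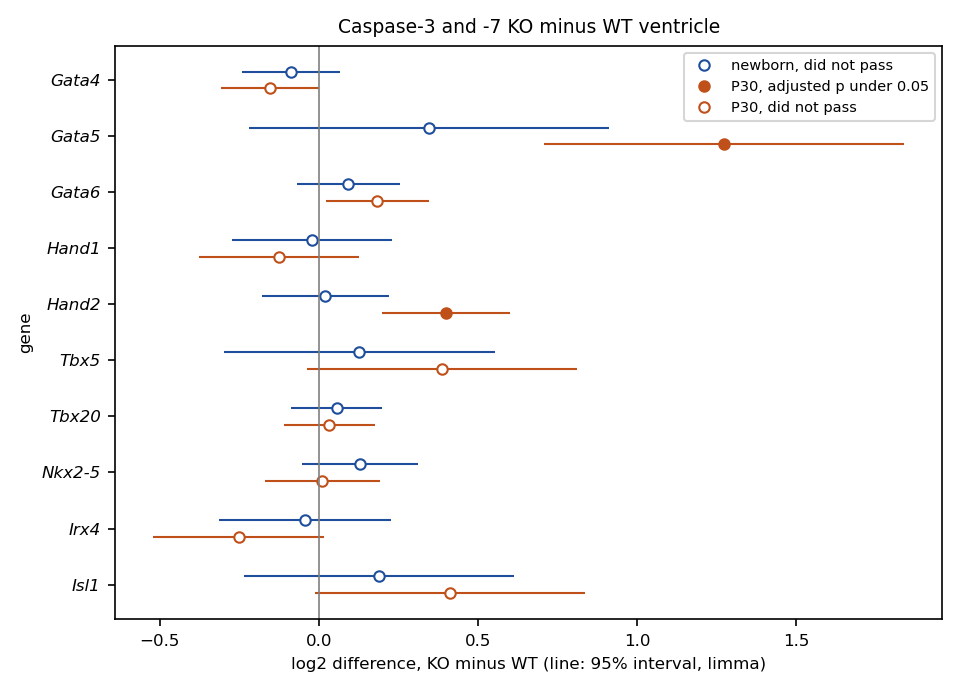
Log2 difference KO minus WT (horizontal axis) of each gene (vertical axis) in newborn and P30 hearts, as filled points where past the threshold and open points elsewhere, with lines for 95% confidence intervals from limma. Gata5 at 1.27 and Hand2 at 0.40 are the P30 differences past the threshold, and 0 newborn differences are.

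The relatives of the called genes did not pass the test at P30. Gata6 was at 10.07, 10.19 and 10.37 in WT and 10.03, 10.44 and 10.54 in KO hearts (lowest, median and highest), and 4 KO arrays were above every WT array. Its difference was 0.18 (SE 0.08, 95% interval 0.02 to 0.34, adjusted p = 0.266 from limma), and it passed only without the P30 KO array numbered 3, at 0.25 (0.0335). Gata4 differed by -0.15 (SE 0.07, 95% interval -0.31 to just under 0, adjusted p = 0.332), with 2 KO arrays below every WT array. Hand1 differed by -0.13 (SE 0.12, 95% interval -0.38 to 0.12, adjusted p = 0.680).

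The T-box and homeobox genes were not called either. Tbx5 was at 8.95, 9.96, 8.85, 8.88, 9.12 and 8.93 in the P30 WT arrays 1 to 6 and at 9.41, 9.84, 8.90, 9.60, 9.96 and 9.29 in the KO arrays. Its difference was 0.39 (95% interval -0.04 to 0.81, adjusted p = 0.382 from limma), close in size to that of Hand2 but with an SE of 0.21 against 0.10. Without the P30 WT array numbered 2 it was 0.56 (adjusted p = 0.0948). Irx4 went the other way, with a difference of -0.25 (SE 0.13, 95% interval -0.52 to 0.02, adjusted p = 0.366) and 3 KO arrays below every WT array. Isl1 had a difference of 0.41 (SE 0.21, 95% interval -0.01 to 0.84, adjusted p = 0.349) from values of 2.84 to 3.30 in WT and 3.07 to 4.21 in KO hearts, all in the low range of the arrays.

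Tbx20 and Nkx2-5 had the narrowest intervals around 0. The Tbx20 difference was 0.03 (95% interval -0.11 to 0.18, adjusted p = 0.878 from limma) and became -0.02 after median centring. That of Nkx2-5, whose promoter and enhancer sequences drive the Cre transgene, was 0.01 (95% interval -0.17 to 0.19, adjusted p = 0.974) and became -0.04 after median centring. On the linear scale the Nkx2-5 interval ran from 0.888-fold to 1.14-fold.

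In newborn KO ventricles none of the 10 genes passed the test, as was the case for 0% of all genes tested, while at an unadjusted p under 0.05 there were 0 members and 9.07% of all genes. Gata5 had the largest difference, 0.35 (SE 0.27, 95% interval -0.22 to 0.91, adjusted p = 0.709 from limma), from 5.57, 5.98 and 6.27 in WT and 6.07, 6.28 and 6.65 in KO hearts, and 3 KO arrays were above every WT array. Hand2 differed by 0.02 (SE 0.10, 95% interval -0.18 to 0.22, adjusted p = 0.961), with KO values of 8.49 to 8.78 inside the WT range of 8.35 to 8.85. The other differences lay between -0.09 for Gata4 and 0.19 for Isl1. Leaving out both newborn arrays numbered 4, when 117 genes of the whole array passed as higher and 365 as lower, again gave 0 members. The newborn share of 0% of all genes thus depended on that pair of arrays.

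Whether the effect of the knockout differed between the ages was tested directly. The difference of the effects, P30 minus newborn, was 0.93 for Gata5 (SE 0.39, adjusted p = 0.338 from limma) and 0.38 for Hand2 (SE 0.14, adjusted p = 0.291), and 0 of the 10 genes passed, against 0.0106% of all genes. At an unadjusted p under 0.05 these were the members counted, 2 of 10, against 12.9% of all genes. A P30 effect of Gata5 or Hand2 that differs from the newborn effect was therefore not shown.

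Several factors moved with markers of other heart cells from array to array. In bulk tissue, fewer cells of a type and less RNA per cell cannot be told apart. Within each group of 6 arrays, the deviation of Tbx5 from its group mean followed the mean of the 13 atrial cardiomyocyte markers, with Pearson's r of 0.99 in newborn WT, 0.98 in newborn KO, 0.92 in P30 WT and 0.97 in P30 KO hearts. With 6 sinus node markers the values of Tbx5 were 0.88, 0.98, 0.98 and 0.38, and with 12 fibroblast markers 0.62, 0.90, 0.78 and 0.84. Its link was thus not particular to the atrial list. For Gata5 the values with the atrial markers were 0.79, 0.84, 0.92 and 0.82. With 13 epicardial or mesothelial markers they were 0.87, 0.82, 0.89 and 0.80. With the fibroblast markers they were 0.93, 0.83, 0.74 and 0.73, and with the sinus node markers 0.69, 0.79, 0.95 and 0.63. With 8 smooth muscle markers they were 0.45, 0.76, 0.92 and 0.54, and with 12 endothelial or endocardial markers 0.54, 0.68, 0.71 and 0.92. Irx4 ran against the atrial mean, at -0.50, -0.77, -0.42 and -0.90, and against the fibroblast mean, at -0.24, -0.89, -0.90 and -0.76. Hand2 had no common direction with the atrial mean, at 0.65, -0.37, 0.04 and 0.26. These are descriptions over 6 arrays each, which share tissue, RNA and scaling within an array.

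The atrial markers differed between the P30 arrays in the same places as Tbx5 and Gata5. Their mean was 6.18, 9.30, 5.96, 5.92, 8.10 and 6.34 in the P30 WT arrays 1 to 6 and 8.78, 9.76, 6.39, 8.94, 9.76 and 8.10 in the KO arrays, so the WT array numbered 2 was high and the KO array numbered 3 low. Of the 13 markers 12 had a higher mean in KO hearts, with a median difference of 1.64, and 0 passed the test. Over all genes tested, 0.67% were called higher in P30 KO hearts and 0.351% lower. Myl7, the atrial myosin light chain, ran from 3.58 to 12.1 in P30 WT and from 5.43 to 12.1 in P30 KO arrays. The epicardial mean was 4.83 to 6.95 in WT and 5.69 to 7.64 in KO hearts, with 13 of 13 markers higher, a median of 0.78 and 0 called. For 12 fibroblast markers the range was 8.06 to 9.54 in WT and 8.12 to 9.79 in KO hearts, with 12 of 12 higher, a median of 0.59 and 0 called. The smooth muscle mean was 6.88 to 8.47 in WT and 7.13 to 8.97 in KO hearts, with 7 of 8 higher, a median of 0.67 and 0 called. The endothelial or endocardial mean was 8.43 to 8.96 in WT and 8.64 to 8.99 in KO hearts, with 10 of 12 higher, a median of 0.14 and 0 called. The age comparison gave calls in these lists in both directions. In WT hearts 12 of 13 epicardial, 8 of 13 atrial and 6 of 12 fibroblast markers fell, where 27.9% of all genes did. So did 7 of 12 endothelial or endocardial and 1 of 8 smooth muscle markers. In the same order 0, 1, 1, 3 and 1 rose, against 19.2% of all genes. In KO hearts 9, 3, 4, 5 and 0 fell, against 25%, and 0, 1, 3, 2 and 5 rose, against 34%.

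**Figure D4:**
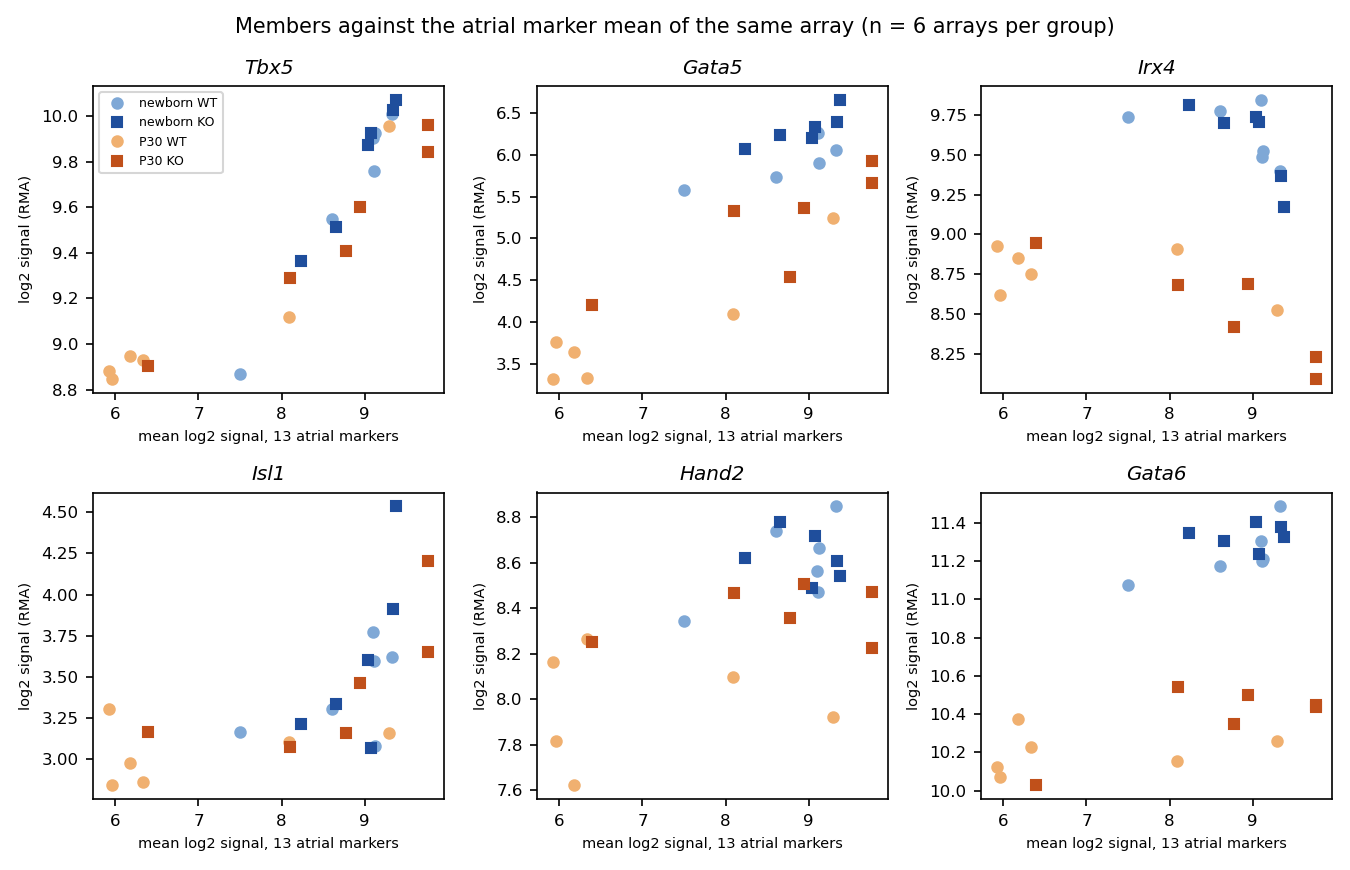
Log2 signal of Tbx5, Gata5, Irx4, Isl1, Hand2 and Gata6 (vertical axes) against the mean log2 signal of 13 atrial cardiomyocyte markers (horizontal axes), with 1 point per array, coloured by group. Tbx5 climbs with the atrial mean within every group, with r between 0.92 and 0.99, whereas Hand2 does not, with r between -0.37 and 0.65.

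The knockout differences at P30 were therefore also read with each marker mean in a fit of the 12 P30 arrays, where 0 of the 10 genes passed. Gata5 went from 1.27 to 0.52 with the atrial mean (adjusted p = 0.517 from limma), 0.70 with the epicardial mean (0.407) and 0.77 with the fibroblast mean (0.306). Hand2 changed little, to 0.37, 0.45 and 0.36 (adjusted p = 0.441, 0.338 and 0.287). Tbx5 went from 0.39 to -0.09, 0.06 and 0.06, and Irx4 from -0.25 to -0.04, -0.09 and -0.06. In the same 12 arrays without a marker mean 0 genes of the list passed as well, so the lost calls say nothing about the markers. The part of RNA from atrial, epicardial, fibroblast, smooth muscle or endothelial cells in the knockout and age differences was not tested.

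**Figure D5:**
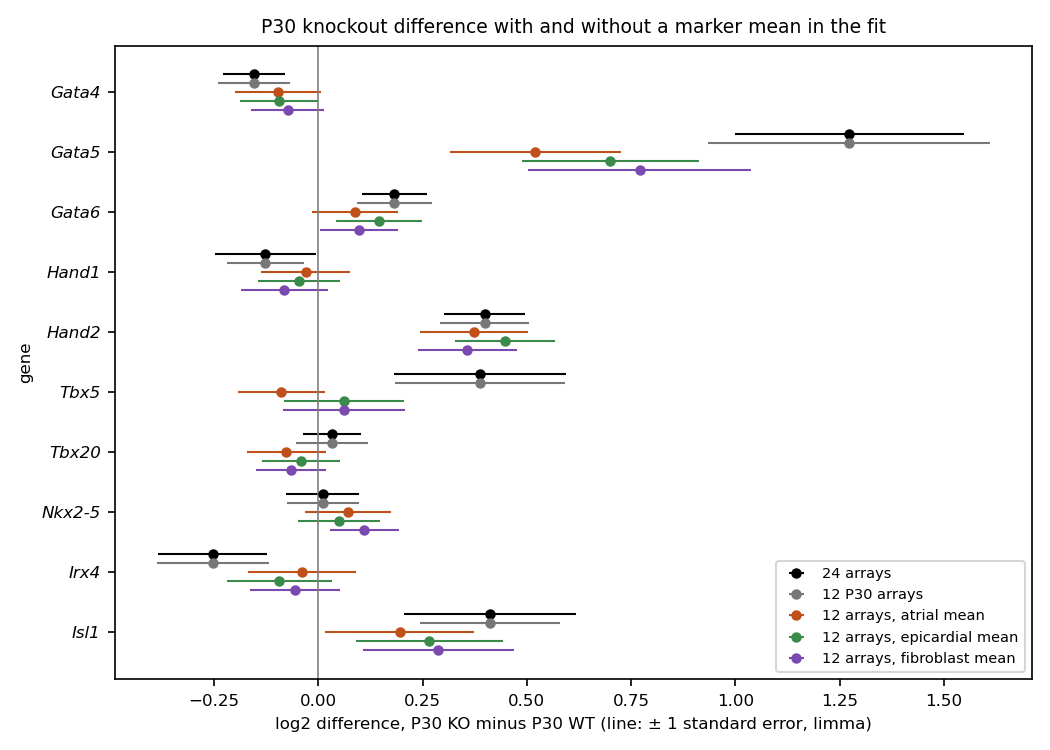
Log2 difference KO minus WT at P30 (horizontal axis) of each gene (vertical axis) in the fit of all 24 arrays, in a fit of the 12 P30 arrays and in that fit with the mean of atrial, epicardial or fibroblast markers as a covariate, with lines for 1 standard error on each side. Gata5 shrinks from 1.27 to between 0.52 and 0.77, and Hand2 stays between 0.36 and 0.45.

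Members also varied together. Gata5 and Tbx5 deviated in common within every group, with r of 0.75, 0.81, 0.95 and 0.89 in newborn WT, newborn KO, P30 WT and P30 KO hearts (6 arrays each). Irx4 went with Gata4, at 0.62, 0.81, 0.90 and 0.83, and with Nkx2-5, at 0.87, 0.59, 0.80 and 0.86. Isl1, near background, followed the epicardial mean in newborn hearts, at 0.95 in WT and 0.99 in KO arrays, and did so less at P30, at 0.04 and 0.73. In newborn hearts it also followed the fibroblast mean, at 0.96 and 0.84, and the smooth muscle mean, at 0.72 and 0.89.

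For the 2 genes called in the knockout, the 5 genes with the most similar pattern were looked up by Pearson's r of the deviations from the group means over 24 arrays. For Gata5 they were Igsf23 (0.95), Igfbp5 (0.92), which encodes a secreted IGF-binding protein, Pkhd1l1 (0.92), Id2 (0.91), an inhibitor of helix-loop-helix factors, and Plppr5 (0.90). Each had a positive P30 difference, 0.41 for Id2 to 0.78 for Pkhd1l1, and none passed (adjusted p 0.248 to 0.547 from limma). For Hand2 they were Pnck (0.83), Lyplal1 (0.80), Fbxl14 (0.79), Epb41l5 (0.77) and Tatdn3 (0.76), with P30 differences of -0.05 to 0.16, none of which passed (adjusted p 0.433 to 0.999).

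Beyond the 10 genes, 20 relatives from the GATA, T-box, Iroquois, LIM-homeobox, NK and Twist families were measured. At P30 and at birth 0 of 20 passed the test between genotypes. The shares of all genes were 0% at birth, and 0.67% higher and 0.351% lower at P30. With age, 7 of 20 fell and 1 rose in WT hearts, where 27.9% of all genes fell and 19.2% rose. In KO hearts 6 fell and 2 rose, where 25% of all genes fell and 34% rose. The medians were -0.24 in WT and -0.08 in KO hearts. Tbx18, a factor of the epicardium and the sinus node, fell by 1.91 (SE 0.12) in WT and by 1.79 (SE 0.12) in KO hearts. Twist2 fell by 1.24 in WT hearts, Tbx2 by 0.80 and Irx2 by 0.61, and Tbx1 rose by 0.46. In KO hearts Irx2 fell by 0.87, Tbx2 by 0.67 and Irx5 by 0.66, and Nkx2-3 rose by 0.37 and Nkx2-6 by 0.34.

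Of 28 cofactors and other heart factors measured, 0 passed in either knockout comparison. Among all genes 0% passed at birth, and 0.67% were higher and 0.351% lower at P30. With age 16 of 28 fell and 3 rose in WT hearts, where 27.9% of all genes fell and 19.2% rose. In KO hearts 15 fell and 5 rose, where 25% of all genes fell and 34% rose. The medians were -0.30 in WT and -0.26 in KO hearts. Hey2, a Notch-responsive repressor of the compact ventricular wall, fell by 3.06 (SE 0.13) in WT and by 3.00 (SE 0.13) in KO hearts. In WT hearts Tcf21, a factor of epicardial derivatives and fibroblasts, fell by 1.84, Foxc2 by 1.17 and Foxc1 by 1.09, and Tead1, Srf and Mesp1 rose by 0.39, 0.33 and 0.21. In KO hearts Tcf21 fell by 1.80, Zfpm2, the GATA4 cofactor FOG2, by 0.86 and Foxc2 by 0.78. Mesp1, Tead1, Smyd1 and Srf rose there by 0.33, 0.32, 0.26 and 0.23.

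Among 20 measured genes known to be bound or regulated by the factors, 0 passed between genotypes at either age. Of all genes tested 0% passed at birth, and at P30 0.67% were higher and 0.351% lower, so 0 is near that share. Nppa, the atrial natriuretic peptide gene and a target of GATA4, NKX2-5 and TBX5, had a P30 difference of 1.20 (SE 0.41, adjusted p = 0.151 from limma), and Gja5, which encodes connexin 40 and is a target of TBX5, one of 1.01 (SE 0.41, adjusted p = 0.233). Both are also strong in atrial muscle, and the atrial marker list holds Nppa. With age the targets went both ways. Of 20, 8 rose and 7 fell in WT hearts, where 19.2% of all genes rose and 27.9% fell. In KO hearts 8 rose and 6 fell, where 34% of all genes rose and 25% fell. Myh7, the fetal myosin heavy chain, fell by 4.34 (SE 0.20) in WT and by 4.63 (SE 0.20) in KO hearts, and Gja5 fell by 2.51 in WT and by 1.42 in KO hearts. Nppa fell by 1.13 and Slc8a1, the sodium-calcium exchanger, by 0.52 in WT hearts, and Slc8a1 by 0.67 and Kcnh2 by 0.30 in KO hearts. Nppb rose by 1.68 in WT and 0.90 in KO hearts, Csrp3 by 0.55 and 0.46, Corin by 0.49 and 0.39 and Tnni3, the adult troponin I, by 0.29 in both.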

How the data were processed

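RNA from ventricle tissue of 24 hearts was hybridised to whole-transcript Affymetrix arrays, and the groups were taken from the age and genotype in the sample labels. Nothing in the sources goes beyond saying that the samples are separate hearts, so p-values measure the spread between these samples. The authors deposited log2 values from RMA. Tools named in the submitters' notes on processing are oligo 1.22, limma 3.14 and R 2.15. RMA draws the arrays to a common distribution, so a shift shared by most genes cannot be seen, and the number of arrays limits the precision. Of 35017 probe sets, 21118 named 1 gene, 1735 several and 12164 none, and 18819 genes were tested.

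A limma 3.58.1 model (R 4.3.3) with a mean for each group, empirical Bayes variances and 20 residual degrees of freedom was fitted to all genes of the 24 arrays, and p-values were adjusted by the Benjamini-Hochberg method at 0.05. Comparisons that share arrays are not independent: the age and genotype comparisons use the same 4 groups. The procedure was tested on simulated data. The members, gene lists and alternatives were chosen with earlier results of these data known. The genes named are the 10 members, the 5 most similar genes for each member called in a knockout comparison, of each list, markers included, the genes called between genotypes, and of the relatives, cofactors and targets up to 4 per direction with the largest age difference. Age calls of the markers are given as counts, with Myl7 named for its range after its values had been seen. The other alternatives were array weights, a filter at the 30th percentile of signal, a robust variance trend, the mean of a gene's probe sets, all probe sets, a fold change of at least 1.5, quantile normalization repeated, centring on array medians, a block for the replicate number, the 12 arrays of a comparison with and without a marker mean, and leaving out arrays. Replicate numbers were not used as pairs in the main fit. Some list genes, among them Myh6, were not analysed here. Promoters came from RefSeq (GRCm38.p6).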

Additional observations from a re-analysis of the deposited data

Results flagged for a closer look

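The highest P30 WT value of Tbx5 stood apart from the rest of its group. It was 9.96 in the array numbered 2, against 8.85 to 9.12 in the other 5, a gap of 0.754 of the whole range. Among the 40 groups of 6 arrays examined for the 10 genes this was the 1 such value, where chance alone marks about 1 in 20 groups. The same array had the highest P30 WT value of Gata5, at 5.24, and of the atrial marker mean, at 9.30. Without it the Tbx5 difference between P30 KO and WT hearts was 0.56 (adjusted p = 0.0948 from limma) and that of Gata5 was 1.54 (adjusted p = 0.00107). The source of this value was not tested.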

How the results depend on the processing

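Of the 10 genes, 2 were called between P30 KO and WT hearts. The count was 1 with a fold change of at least 1.5, with median centring, with array weights and with all probe sets tested, and 0 with only the 12 arrays of the comparison and with the atrial, epicardial or fibroblast marker mean added to them. It ran from 0 to 3 with 1 array left out. The newborn count and that of the difference of effects were 0 under every alternative run. With age, 8 members fell in WT hearts (6 to 9 over the alternatives and with 1 array left out) and 8 in KO hearts (7 to 8 with 1 array left out, 5 with a fold change of at least 1.5).

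Signs changed only for differences that had not passed the test. In newborn hearts Hand1 was at 0.0028 after median centring, and with the epicardial mean Hand1 was at 0.0781, Tbx5 at -0.0698, Irx4 at 0.0863 and Isl1 at -0.1815. At P30, Tbx20 was at -0.0228 and Nkx2-5 at -0.0448 after median centring, Nkx2-5 at -0.0137 with array weights, Tbx5 at -0.0890 and Tbx20 at -0.0776 with the atrial mean, and Tbx20 at -0.0418 with the epicardial and -0.0665 with the fibroblast mean. For the difference of effects, Tbx20 was at 0.0056 with array weights and Hand1 at 0.0175 without both newborn arrays numbered 4. The cause of these shifts was not tested. With 1 array left out, newborn differences ran from -0.0909 to 0.0530 for Hand1, -0.0319 to 0.0687 for Hand2, -0.0333 to 0.2135 for Tbx5 and -0.0904 to 0.0377 for Irx4, P30 differences from -0.0064 to 0.0892 for Tbx20 and -0.0400 to 0.0422 for Nkx2-5, the difference of effects from -0.0623 to 0.0333 for Tbx20, and the KO age difference from -0.3104 to 0.0257 for Isl1.

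With the replicate number as a block the member counts were 0 (newborn), 2 (P30), 0 (difference of effects), 9 (WT age) and 8 (KO age), and the block changed 1 call, that of Gata4 with age in WT hearts (adjusted p = 0.0494). Deviations of arrays with the same number correlated at -0.438 to 0.645 over 24 pairs, of which 8 were above 0.1. The value of -0.438 was that of the newborn WT and newborn KO arrays numbered 4. The best match had the same number in 5 of these 24 pairs. Among the 5 were the P30 WT arrays numbered 2, 3, 5 and 6 against the P30 KO arrays, at 0.645, 0.122, 0.200 and 0.097. The numbers were not used as pairs in the main fit, and whether they pair the P30 hearts was not settled. Scaling moved the split of all genes called. Between P30 KO and WT hearts 126 were higher and 66 lower, against 84 and 204 after median centring and 129 and 141 after a new quantile normalization. With age in WT hearts 3612 were higher and 5242 lower, against 5027 and 4557 after centring and 4279 and 4535 after quantile normalization.

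Isl1 lies too close to the background of the arrays for its differences to be read with any precision, and Gata5 in P30 WT hearts is not far above it. Hand1 at P30 is similarly near it, with means of 4.02 in WT and 3.90 in KO hearts, so the sizes of its differences are limited too. With 6 arrays per group and an SE of 0.27, the newborn Gata5 interval of -0.22 to 0.91 covers both no difference and a rise of up to 1.88-fold.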

Other observations

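Genes with the pattern most like Tbx5 and Isl1 were looked up after their values had been seen. Over the deviations of the 24 arrays from their group means, Tbx5 went with Camk1d (r = 0.97), Kcnj3 (0.97) and Gnao1 (0.96). Kcnj3, which encodes a subunit of the acetylcholine-activated potassium channel of atrial and nodal cells, is on the atrial marker list. These genes had P30 differences between KO and WT hearts of 0.70, 0.20 and 0.35, none of which passed the test (adjusted p = 0.330, 0.801 and 0.598 from limma). The weak signal of Isl1 went with Vat1l (0.87), Nbl1 (0.83), Snap25 (0.83), Chrna3 (0.83) and Gdf10 (0.83). Snap25, a component of the synaptic vesicle fusion machinery, and Chrna3, a nicotinic acetylcholine receptor subunit of autonomic ganglia, are genes of neurons. The correlations with these genes are descriptions over 24 arrays that share tissue, RNA and scaling within an array. In newborn hearts Isl1 also followed the epicardial mean, at 0.95 in WT and 0.99 in KO arrays. Which cells the Isl1 signal came from was not tested.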
